A study of Mus musculus with 6 samples.

Results

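The chemokines and the atypical chemokine receptors that lymphatic endothelium is known for were examined in bulk RNA-seq of sorted dural lymphatic endothelial cells (LECs). They were found by gene name among the 55401 genes of the deposited tables, and all 8 were present: the ligands *Ccl21a*, *Ccl19*, *Ccl28*, *Cxcl12* and *Cx3cl1* and the receptors *Ackr2*, *Ackr3* and *Ackr4*. The LECs had been sorted as LYVE-1+/Podoplanin+/CD31+/CD45- cells from the dura mater of wild-type mice, which in the study's methods were male C57BL/6J mice. Both groups had received an adeno-associated virus of serotype 9 into the cisterna magna. The AAV-VEGF-C vector encoded mouse VEGF-C, the main growth factor of lymphatic vessels, and the AAV-CTRL vector encoded a soluble stretch of its receptor VEGFR-3 that cannot bind VEGF-C. The control mice therefore also carried a virus and a transgene. The study's methods give an age of 4 weeks at injection of these vectors. An interval of 4 weeks to analysis is given for other experiments of the study. Each group had 3 libraries from 3 separate experiments, numbered alike in both groups, and each library held RNA from 10 to 12 pooled meninges, so that the spread between libraries, and every p-value below, is one between pools and not between single mice.

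CCL21 and CCL19 are the ligands of CCR7 and guide dendritic cells and T cells into lymphatic vessels and lymph nodes. CCL28 is best known from mucosal epithelium, where it attracts cells with CCR10, CXCL12 is a stromal and endothelial ligand of CXCR4, and CX3CL1 is a membrane-bound ligand of CX3CR1 that can be shed by proteases. The atypical receptors bind chemokines without G protein signaling and remove or redistribute them: ACKR2 takes up inflammatory CC chemokines, ACKR3 takes up CXCL12, and ACKR4 takes up CCL19 and CCL21. 

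Depth, markers and background counts differed between the libraries and touch all of the results below. The AAV-CTRL libraries held 6530269 to 12399498 counts and the AAV-VEGF-C libraries 564475 to 3261935, so that depth and treatment cannot be told apart. All 8 LEC markers were above 3 counts, taken here as the floor of detection, in all 6 libraries, and their summed level was 1385 to 2000 scaled CPM in the control group against 612 to 2971 in AAV-VEGF-C (CPM, counts scaled to a common library total, after correction of that total by TMM factors). The CD45 gene *Ptprc*, which the sort selected against, was at 5 counts in AAV-CTRL 1 and 1 count in AAV-VEGF-C 1, but at 1126 and 1286 counts in AAV-CTRL 2 and 3 and at 177 and 245 counts in AAV-VEGF-C 2 and 3. Genes with no known role in endothelium (2187 olfactory, vomeronasal and taste receptors, keratin-associated proteins and defensins, with their named pseudogenes) held 138 to 311 scaled CPM per AAV-CTRL library against 2714 to 9130 per AAV-VEGF-C library. Of the 213 of them that could be tested, 184 were higher in AAV-VEGF-C and 0 were lower (edgeR, adjusted p under 0.05), with a median log2 fold change of 5.08 against -0.0037 over all 17459 tested genes. These 2187 genes are called silent families here. The filter on low counts keeps a gene that reaches a minimum CPM in as few as 3 libraries. Silent-family genes were near 0 in AAV-CTRL and could pass it mainly through AAV-VEGF-C, where they were high. The split of 184 to 0 and the median of 5.08 are therefore not independent of the filter, whereas the summed levels are over all 2187.

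The mouse genome holds several copies of the *Ccl21* gene, and these set a limit to what a *Ccl21a* count means. In GENCODE M21 on GRCm38, *Ccl21a* lies at chr4:42772860-42773993 on the minus strand. The other copies lie on the plus strand of the same chromosome: *Ccl21b* at chr4:42255767-42256432, *Gm10591* at chr4:42612195-42612860, *Gm13304* at chr4:42114817-42115917 and *Ccl21d* at chr4:41903610-41904743. The coding sequence of *Ccl21a* has 402 bases, and each of the 4 other copies differs from it at the same 2 of them. Counted from the A of the start codon, with the base of *Ccl21a* first, the substitutions are T84A, in exon 2, and C194T, in exon 3. The second one turns a TCA codon (serine) into a TTA codon (leucine), which is the difference behind the names CCL21-Ser and CCL21-Leu. Coding bases 71 to 210 are shown because they hold both sites, in capitals, and all else in this stretch is the same in the 5 genes.
Ccl21a: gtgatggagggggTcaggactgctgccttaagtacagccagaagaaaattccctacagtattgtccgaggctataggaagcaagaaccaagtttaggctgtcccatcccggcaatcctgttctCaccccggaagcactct
Ccl21b, Gm10591, Gm13304 and Ccl21d: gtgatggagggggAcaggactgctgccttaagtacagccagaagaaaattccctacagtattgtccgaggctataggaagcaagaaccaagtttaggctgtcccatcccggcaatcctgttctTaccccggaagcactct

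Reads that cover neither site cannot be assigned by the coding sequence. Of the 50-base stretches of the *Ccl21a* transcript, 588 of 821 (71.6%) occurred in another gene as well. The estimated counts of all 5 genes were not whole numbers in any of the 6 libraries (tolerance 0.001), and how shared reads were divided among them is not stated, so each single copy is reported as uncertain. *Ccl21a* received 50.4% of the summed *Ccl21* counts in AAV-CTRL 1, 53.3% in AAV-CTRL 2 and 55.5% in AAV-CTRL 3. Its share was 54.6% in AAV-VEGF-C 1, 45.1% in AAV-VEGF-C 2 and 51.5% in AAV-VEGF-C 3. The groups overlapped (53.0% ± 2.56 against 50.4% ± 4.87, SD, n = 3; two-sided exact permutation p = 0.6, where 0.1 is the smallest value that 3 libraries against 3 can give). *Ccl19* has a like limit, since 475 of 914 of its stretches (52.0%) also occurred in *Gm2564*, *Ccl19-ps3*, *Gm12407* or *Ccl19-ps1*. Only 9 of 4795 stretches of *Ccl28* were shared, and none of *Cxcl12*, *Cx3cl1*, *Ackr2*, *Ackr3* and *Ackr4*.

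**Figure D1:**
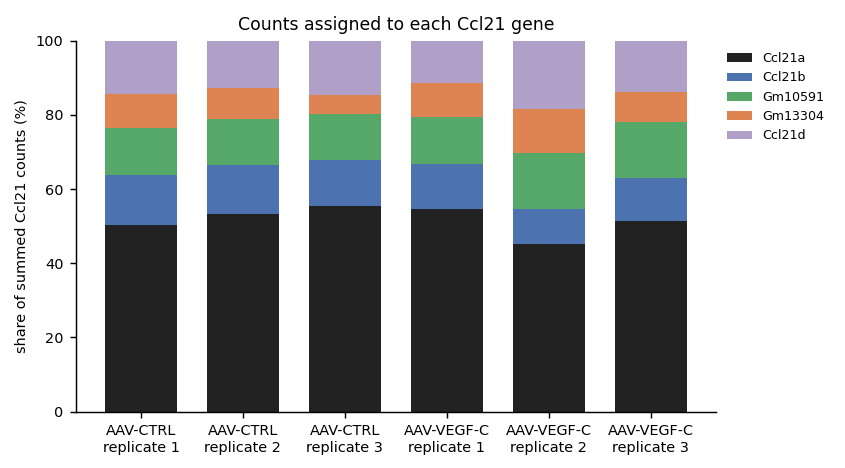
Share of the summed *Ccl21* counts (%, y axis) assigned to each of 5 near-identical genes in each library (x axis), as stacked bars. *Ccl21a*, the black part, took 45.1% to 55.5% in all 6 libraries.

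Each of the other members is annotated at a single locus, with the limit on assigning *Ccl19* reads given above. *Ccl19* lies at chr4:42754525-42756577 on the minus strand, and it and *Ccl21a* are overlapped on the other strand by *4930578G10Rik*, which had 35.3 counts in all libraries together. *Ccl28* lies at chr13:119623819-119654359, *Cxcl12* at chr6:117168535-117181367 and *Cx3cl1* at chr8:94772009-94782427, all on the plus strand. *Ackr2* lies at chr9:121898355-121911074 and *Ackr3* at chr1:90203980-90216751, both on the plus strand. *Ackr4* lies at chr9:104084157-104126933 on the minus strand and overlaps *Acad11* on the other strand. *Acad11* had 5 to 219 counts per library against 2 to 14 for *Ackr4*, and since the use of strand in counting is not stated, *Ackr4* is reported as uncertain.

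Levels of different genes were compared in TPM, which correct for transcript length. *Ccl21a* was the most abundant of the 8 genes in each of the 6 libraries, at 287 ± 56.3 TPM in AAV-CTRL against 129 ± 71.2 in AAV-VEGF-C (SD, n = 3). It was also the most abundant of the listed chemokine ligands in every library. *Cxcl12* came next, at 55.3 ± 22.3 TPM in AAV-CTRL against 11.5 ± 7.82 in AAV-VEGF-C, and was followed by *Cx3cl1* at 16.8 ± 8.14 and 5.32 ± 1.75 TPM. In AAV-CTRL none of these 3 genes overlapped with the next one in the order, which for *Cx3cl1* was *Ccl19* (8.30 ± 3.00 TPM). In AAV-VEGF-C *Cxcl12* and *Cx3cl1* overlapped, as did *Cx3cl1* with *Ackr2* (3.77 ± 1.83 TPM) and *Ackr2* with *Ccl19* (3.75 ± 0.586 TPM). Neighbours in the middle of the AAV-CTRL order, *Ccl19* with *Ackr2* (5.02 ± 2.69 TPM) and *Ackr2* with *Ackr3* (4.01 ± 1.64 TPM), also lay within each other's spread. *Ackr3* had 1.96 ± 0.694 TPM in AAV-VEGF-C, where it overlapped with *Ccl28*. The last places in AAV-CTRL were those of *Ackr4* (0.345 ± 0.128 TPM) and *Ccl28* (0.138 ± 0.0269 TPM). In AAV-VEGF-C this order was turned, with 1.32 ± 0.558 TPM for *Ccl28* and 0.512 ± 0.184 TPM for *Ackr4*, in 3 of 3 libraries of each group.

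**Figure D2:**
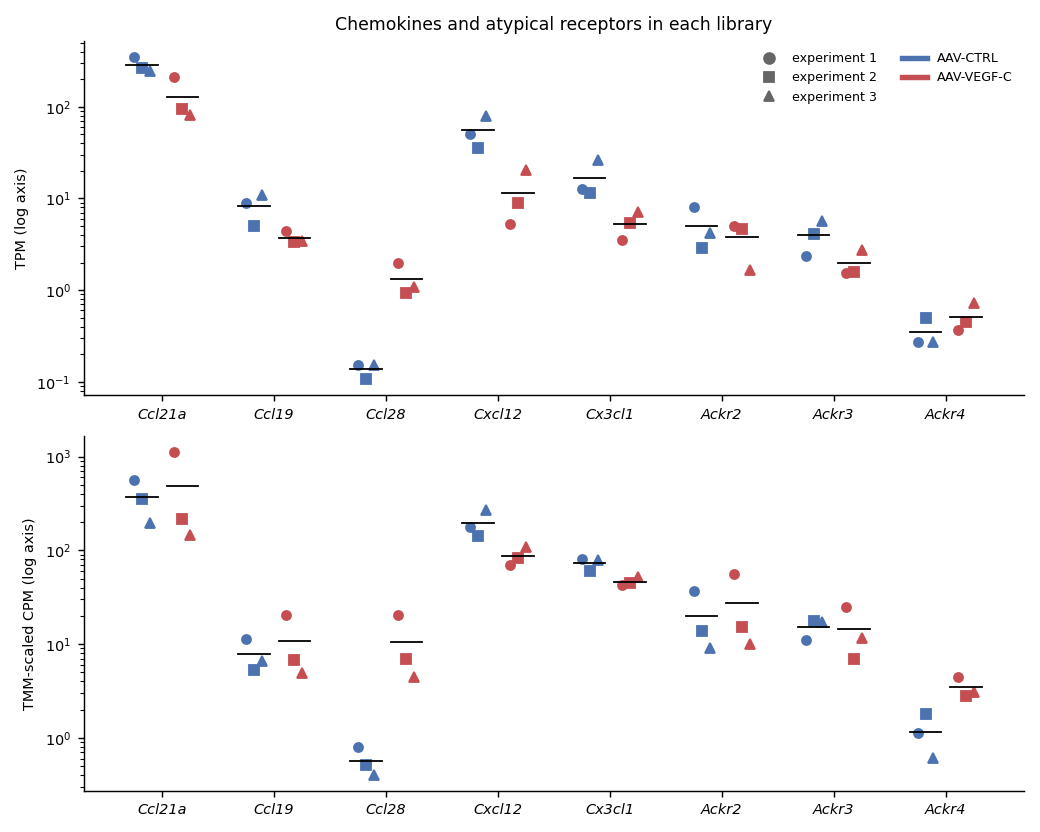
TPM (top) and TMM-scaled CPM (bottom) of the 8 genes in each library, on log axes, with experiments as symbols, groups as colours and group means as lines. In TPM 4 genes lay lower and *Ccl28* higher in all AAV-VEGF-C libraries, whereas in scaled CPM *Cxcl12* and *Cx3cl1* lay lower and *Ccl28* and *Ackr4* higher.

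Whether VEGF-C changed these levels was tested with edgeR's quasi-likelihood test across all 17459 genes that passed its filter on low counts, with Benjamini-Hochberg adjustment. All 8 genes passed the filter, which asks for the CPM of 10 counts at the median library total, in at least 3 libraries. *Ccl28* and *Ackr4* reached this only in the AAV-VEGF-C libraries, so that they were tested at all through the group where they were high. How many other tested genes passed in this way was not counted. In bulk RNA, fewer cells of a type and less RNA per cell cannot be told apart, which holds for each result below. *Ccl28* was higher in AAV-VEGF-C, and 0 of the 8 were lower, where 10.5% of all tested genes were higher and 0.659% were lower at an adjusted p under 0.05. At an unadjusted p under 0.05 the count was 3 of 8, where 28.1% of all tested genes were. Of all tested genes, 12.8% lay higher and 36.4% lower in TPM in all 3 AAV-VEGF-C libraries than in any control library, and 21.9% and 18.8% did so in scaled CPM. In TPM 1 member lay higher and 4 lay lower in this way. In scaled CPM 2 lay higher and 2 lay lower.

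The CCR7 ligands gave no call in either direction. Estimated counts of *Ccl21a* were 3504, 2815 and 2931 for AAV-CTRL 1, 2 and 3 and 492, 311 and 520.04 in AAV-VEGF-C 1, 2 and 3. In TPM these were 352, 264 and 247 in the AAV-CTRL libraries against 211, 94.3 and 82.1 in AAV-VEGF-C, without overlap. In scaled CPM they were 559.7, 356 and 198 in the AAV-CTRL libraries against 1106, 217 and 144 in AAV-VEGF-C. On this scale AAV-VEGF-C 1 was the highest of all 6 libraries and AAV-VEGF-C 3 the lowest, so that the AAV-CTRL values fell between them. The log2 fold change (AAV-VEGF-C minus AAV-CTRL) was 0.42 (SE 0.77, adjusted p = 0.772), and it was 0.41 (adjusted p = 0.774) for the 5 *Ccl21* genes summed. Without AAV-VEGF-C replicate 1 it was -1.05 (adjusted p = 0.190), without AAV-CTRL replicate 3 it was -0.053 (adjusted p = 0.980), and with the experiment number as a replicate block it was -0.034 (SE 0.38, adjusted p = 0.963). Within experiments 1, 2 and 3 the log2 ratio was 0.98, -0.71 and -0.45.

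*Ccl19*, the other CCR7 ligand, had 71.7, 42.1 and 96.9 counts in the AAV-CTRL libraries against 9.02, 9.78 and 17.5 in AAV-VEGF-C. Its scaled CPM was 11.4, 5.33 and 6.53 in the AAV-CTRL libraries against 20.3, 6.84 and 4.85 in AAV-VEGF-C. As for *Ccl21a*, the AAV-VEGF-C libraries held both the highest and the lowest value. The log2 fold change was 0.26 (SE 0.63, adjusted p = 0.833) and turned to -0.45 (adjusted p = 0.601) without AAV-VEGF-C replicate 1. CCR7 itself was near the floor: *Ccr7*, named here for its role after its values were seen, had 1 count in each AAV-CTRL library, 0 in AAV-VEGF-C 1 and 2, and 21 in AAV-VEGF-C 3.

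*Ccl28* was the one member called. Its counts were 5, 4 and 6 for AAV-CTRL 1, 2 and 3 and 9, 10 and 16 for AAV-VEGF-C 1, 2 and 3. In TPM these were 0.153, 0.107 and 0.154 against 1.96, 0.924 and 1.09, and in scaled CPM 0.799, 0.506 and 0.404 against 20.2, 6.99 and 4.44. The groups did not overlap on either scale, and the ratio was positive in 3 of 3 experiments (log2 ratios 4.66, 3.79 and 3.46). The log2 fold change was 4.06 (SE 0.78, edgeR, adjusted p = 0.0222). It rested on 35 counts in AAV-VEGF-C and 15 in AAV-CTRL, a ratio of 12.4 per scaled count with a 95% interval of 6.58 to 24.4 that covers counting error only. The call was lost without AAV-CTRL replicate 2 (adjusted p = 0.0802) or 3 (0.0605) and without AAV-VEGF-C replicate 2 (0.0545) or 3 (0.0523), while the log2 fold change stayed between 3.28 and 4.42 whichever library was left out.

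The rise of *Ccl28* moved with that of the silent families. Their mean level was 0.0343, 0.0237 and 0.0317 TPM in AAV-CTRL 1, 2 and 3 and 0.360, 0.335 and 0.331 TPM in AAV-VEGF-C 1, 2 and 3, a ratio of group means of 11.4 beside 9.60 for *Ccl28* in TPM. In scaled CPM the ratio of group means was 24.9 for their sum and 18.5 for *Ccl28*. In each library 73 to 192 of the 2187 silent-family genes had a TPM at or above that of *Ccl28*. The part of silent-family counts in the *Ccl28* result was not tested. Markers of epithelium, the tissue *Ccl28* is best known from, summed to 26.8 to 41.0 scaled CPM per AAV-CTRL library against 21.5 to 69.3 per AAV-VEGF-C library. None of the 5 tested epithelial markers was called (edgeR, smallest adjusted p = 0.213; 0 at an unadjusted p under 0.05). Their median log2 fold change was 1.17, against -0.0037 over all tested genes. In TPM and in scaled CPM 1 of the 6 listed lay higher in all AAV-VEGF-C libraries, beside 12.8% and 21.9% of all tested genes. *Krt14* was at 0 counts in AAV-CTRL 2 and 3 and AAV-VEGF-C 1. *Ccr10*, a receptor of CCL28, also named after its values were seen, had 15, 5 and 2 counts in the AAV-CTRL libraries against 1, 0 and 27 in AAV-VEGF-C.

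**Figure D3:**
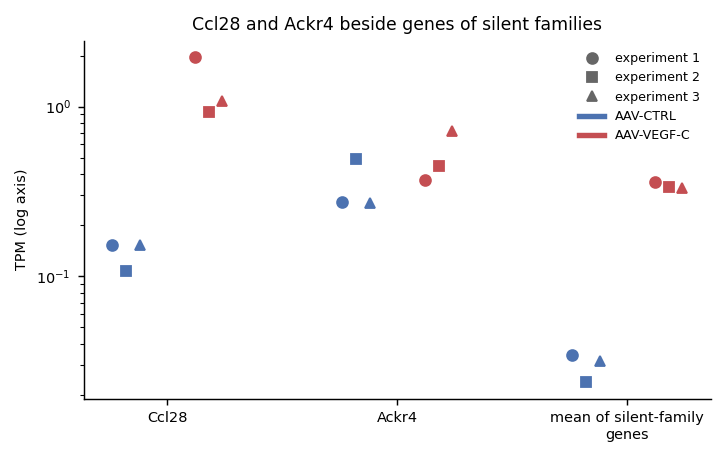
TPM on a log axis of *Ccl28*, *Ackr4* and the mean of 2187 silent-family genes, by library. *Ccl28* and the silent-family mean lay higher in all 3 AAV-VEGF-C libraries, and *Ackr4* overlapped between groups.

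*Cxcl12* was lower in every AAV-VEGF-C library on both scales and did not pass the threshold in the main test. It had 1114, 1117 and 3953 counts in the AAV-CTRL libraries against 31, 119 and 391 in AAV-VEGF-C. In scaled CPM these were 178, 141 and 266 against 69.7, 83.2 and 109, and in TPM 50.4, 35.9 and 79.7 against 5.26, 8.88 and 20.2. The log2 fold change was -1.12 (SE 0.34, edgeR, adjusted p = 0.0773), with log2 ratios of -1.35, -0.77 and -1.29 within experiments 1, 2 and 3. With the replicate block it was -1.10 (SE 0.28, adjusted p = 0.0320), so that the pairing by experiment changed the call, and DESeq2, the method the study used, gave -1.18 (adjusted p = 0.0272).

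Fibroblasts are another source of CXCL12, and their markers were present in these sorted cells. All 6 were above 3 counts in all 6 libraries, and they summed to 8872 to 21532 scaled CPM per AAV-CTRL library against 5791 to 9793 per AAV-VEGF-C library. *Dcn*, a collagen-binding proteoglycan, fell after VEGF-C by 1.69 on the log2 scale (SE 0.37, edgeR, adjusted p = 0.0287), a call that was lost without any 1 of the 6 libraries (adjusted p of 0.0552 to 0.0835), and the other 5 did not pass the threshold. *Lum*, another such proteoglycan, gave a log2 fold change of -1.61 (adjusted p = 0.0814) and *Pdgfra*, a growth factor receptor gene, one of -1.16 (adjusted p = 0.0790). Like *Cxcl12*, both passed with the replicate block (adjusted p = 0.0439 for *Lum* and 0.0495 for *Pdgfra*) and with DESeq2 (0.0220 and 0.0259). With *Dcn*, 3 of the 6 fibroblast markers were lower in each of these fits. Of all genes fitted, 362 of 17459 were lower with the replicate block and 471 of 44563 with DESeq2, beside 0.659% in the main test. The list did not fall evenly. In scaled CPM *Col1a1* and *Col1a2* overlapped between groups, and 4 of the 6 markers lay lower in all AAV-VEGF-C libraries, beside 18.8% of all tested genes. In TPM all 6 lay lower in this way, beside 36.4%. Per count of the summed fibroblast markers, a measure chosen after its values were seen, *Cxcl12* had 0.00826, 0.0159 and 0.0278 counts in the AAV-CTRL libraries against 0.00921, 0.0144 and 0.0111 in AAV-VEGF-C, with overlap between groups. The part of fibroblast RNA in the *Cxcl12* difference was not tested. *Cxcr4*, the signaling receptor of CXCL12, had 6, 96 and 83 counts in the AAV-CTRL libraries against 0, 6 and 26 in AAV-VEGF-C and gave -0.38 on the log2 scale (adjusted p = 0.846).

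*Cx3cl1* showed the same order with a smaller difference. It had 509, 471 and 1180 counts in the AAV-CTRL libraries against 19, 64 and 186 in AAV-VEGF-C. In scaled CPM these were 81.3, 59.6 and 79.5 against 42.7, 44.7 and 51.7, and in TPM 12.8, 11.4 and 26.2 against 3.55, 5.36 and 7.04, without overlap on either scale. The log2 fold change was -0.62 (SE 0.26, adjusted p = 0.174), which did not pass the threshold, and the log2 ratios within experiments were -0.93, -0.41 and -0.62. Of the proteases that can shed CX3CL1, *Adam10* missed the threshold (edgeR, adjusted p = 0.0540) and passed it with the replicate block (adjusted p = 0.0492), and its log2 fold change lay between -1.18 and -0.95 whichever library was left out. That of *Adam17* was -0.39 (adjusted p = 0.634). Its receptor gene *Cx3cr1* is described with the other receptors.

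None of the 3 atypical receptors passed the test (edgeR; 0 at an unadjusted p under 0.05). *Ackr2* had 232, 109 and 136 counts in the AAV-CTRL libraries against 25, 22 and 36 in AAV-VEGF-C, which were 37.1, 13.8 and 9.16 against 56.2, 15.4 and 10.0 in scaled CPM. Its log2 fold change was 0.33 (SE 0.76, adjusted p = 0.828) and turned to -0.67 (adjusted p = 0.513) without AAV-VEGF-C replicate 1 and to -0.16 (adjusted p = 0.921) without AAV-CTRL replicate 3. *Ackr3* had 69, 139 and 254 counts in the AAV-CTRL libraries against 11, 10 and 42 in AAV-VEGF-C, or 11.02, 17.6 and 17.1 against 24.7, 6.99 and 11.7 in scaled CPM. The AAV-VEGF-C libraries held the highest and the lowest value of *Ackr3*, with log2 ratios of 1.17, -1.33 and -0.55 within experiments. Its log2 fold change was -0.18 (SE 0.49, adjusted p = 0.856). Counts of *Ackr4* were 7, 14 and 9 in the AAV-CTRL libraries against 2, 4 and 11 in AAV-VEGF-C, so that AAV-VEGF-C 1 was under the floor of 3 counts. In scaled CPM these were 1.12, 1.77 and 0.606 against 4.50, 2.80 and 3.05, without overlap, whereas in TPM 0.273, 0.493 and 0.270 overlapped with 0.369, 0.447 and 0.720. For *Ackr4* the log2 fold change was 1.52 (SE 0.67, adjusted p = 0.187). In AAV-VEGF-C 254 to 475 of the silent-family genes had a TPM at or above that of *Ackr4*, and in AAV-CTRL 14 to 55 did, and their part in its values was not tested.

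**Figure D4:**
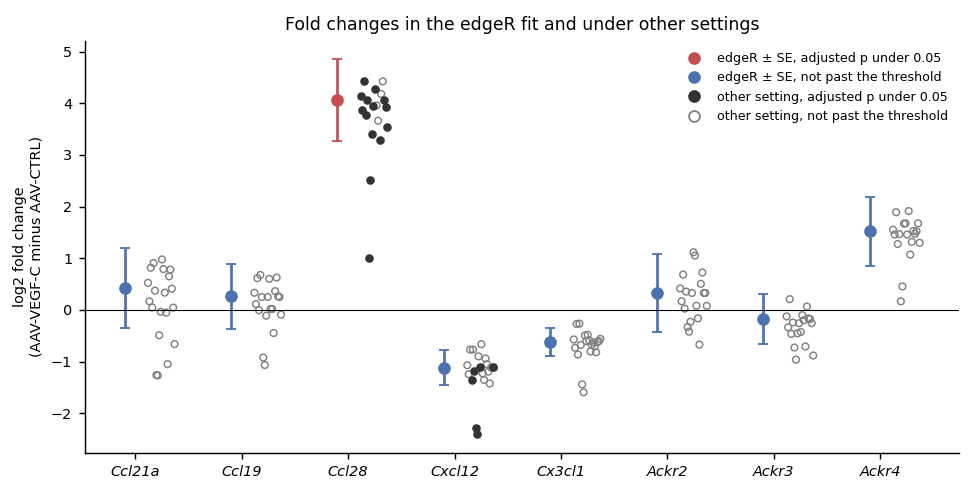
Log2 fold change (AAV-VEGF-C minus AAV-CTRL, y axis) of the 8 genes in the edgeR test with its SE, and in each other setting as small points, filled where the adjusted p was under 0.05. *Ccl28* lay above 0 and *Cxcl12* and *Cx3cl1* below 0 in every setting run, and *Ccl21a*, *Ccl19*, *Ackr2* and *Ackr3* lay on both sides of 0.

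Ratios within a library do not depend on how libraries are scaled to each other, and 3 of them were compared. *Ccl21a* had 0.280, 0.256 and 0.143 counts per count of the 8 summed LEC markers in AAV-CTRL 1, 2 and 3 and 0.372, 0.210 and 0.236 in AAV-VEGF-C 1, 2 and 3. The means were 0.226 ± 0.0734 and 0.273 ± 0.0870 (SD, n = 3) and did not differ beyond the spread between libraries (two-sided exact permutation p = 0.6). Of the 8 markers, *Pecam1* and *Cdh5* were highest in AAV-CTRL 3, as was the sum of the blood endothelial markers (2959 scaled CPM). Their part in the value of 0.143 was not tested. Of the summed TPM of the listed chemokine ligands, *Ccl21a* held 61.3%, 18.1% and 21.2% in the AAV-CTRL libraries against 71.7%, 16.1% and 16.3% in AAV-VEGF-C. The share was high in experiment 1 of both groups and the group means were close to each other (33.5% ± 24.1 and 34.7% ± 32.0, exact permutation p = 1). With the 4 other *Ccl21* genes counted in, the *Ccl21* genes held 84.6%, 30.6% and 34.1% of ligand TPM in the AAV-CTRL libraries against 91.4%, 31.0% and 28.5% in AAV-VEGF-C.

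The third ratio was that of the atypical receptors to the member ligands, which is not a ratio of receptors to their own ligands. *Ackr2*, with the highest mean TPM of the 3 receptors in both groups, is known for inflammatory CC chemokines. Of the *Ccl21* genes, only *Ccl21a* is counted. The summed TPM of *Ackr2*, *Ackr3* and *Ackr4* per summed TPM of the 5 member ligands was 0.0251, 0.0234 and 0.0276 in the AAV-CTRL libraries against 0.0304, 0.0596 and 0.0452 in AAV-VEGF-C. It was higher in all 3 AAV-VEGF-C libraries (0.0450 ± 0.0146 against 0.0254 ± 0.00212, a ratio of means of 1.77), and the exact permutation p of 0.1 is the smallest this design can give. Both sums were lower in TPM in AAV-VEGF-C, the receptors at 6.25 ± 0.958 against 9.37 ± 1.73 TPM and the ligands at 151 ± 65.2 against 368 ± 54.1 TPM. The receptors' sum rests on 36 counts or fewer per gene in AAV-VEGF-C, apart from *Ackr3* in AAV-VEGF-C 3 with 42. With CPM in place of TPM the difference was 0.0166 and the p again 0.1.

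Some of these genes were ordered by experiment. In scaled CPM *Ccl21a*, *Ccl19* and *Ackr2* were higher in both experiment 1 libraries than in all 4 others, as were 6.17% of all tested genes, and 0 of the 8 members were lower there, where 9.58% of all tested genes were. The LEC markers *Prox1*, *Pdpn*, *Flt4*, *Mmrn1* and *Reln*, 5 of the 8 listed, had the same order. Without experiment 1, the log2 fold change of *Ccl21a* was -0.66 (adjusted p = 0.311), that of *Ccl28* 3.55 (adjusted p = 0.0395) and that of *Cxcl12* -1.12 (adjusted p = 0.107).

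For the 4 members with a mean of at least 5 TPM, the genes with the most similar profile were found among 7233 others of at least 5 TPM, by the root mean square difference of log2 CPM centred on each gene's mean over the 6 libraries. For *Ccl21a* these were its copies *Ccl21b* (0.12) and *Gm10591* (0.22), followed by the sodium channel gene *Scn3a* (0.22). With the copies left out, *Mmrn1* (0.26) and *Reln* (0.26), both LEC markers, came after *Scn3a*, where the median gene was at 1.19. For *Ccl19* the nearest were *Fxyd6* (0.15), *Nav2* (0.17) and *Thy1* (0.20), with a median of 0.96. For *Cxcl12* they were *Fam204a* (0.098), *Tmx2* (0.11) and *Pcmtd1* (0.12), with a median of 0.60, and for *Cx3cl1* they were *Lztr1* (0.051), *Sec11a* (0.061) and *Blmh* (0.067), with a median of 0.45. *Ccl21a* and *Ccl19* were 0.47 apart and *Cxcl12* and *Cx3cl1* 0.32, and each of the first pair was 0.84 to 1.36 from each of the second. Among the 7233 genes, *Ccl19* was at rank 24 for *Ccl21a*, and *Ccl21a* at rank 207 for *Ccl19*. *Cx3cl1* was at rank 520 for *Cxcl12*, and *Cxcl12* at rank 1973 for *Cx3cl1*, so that many other genes lay nearer. These distances describe 6 libraries that share depth and experiment.

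**Figure D5:**
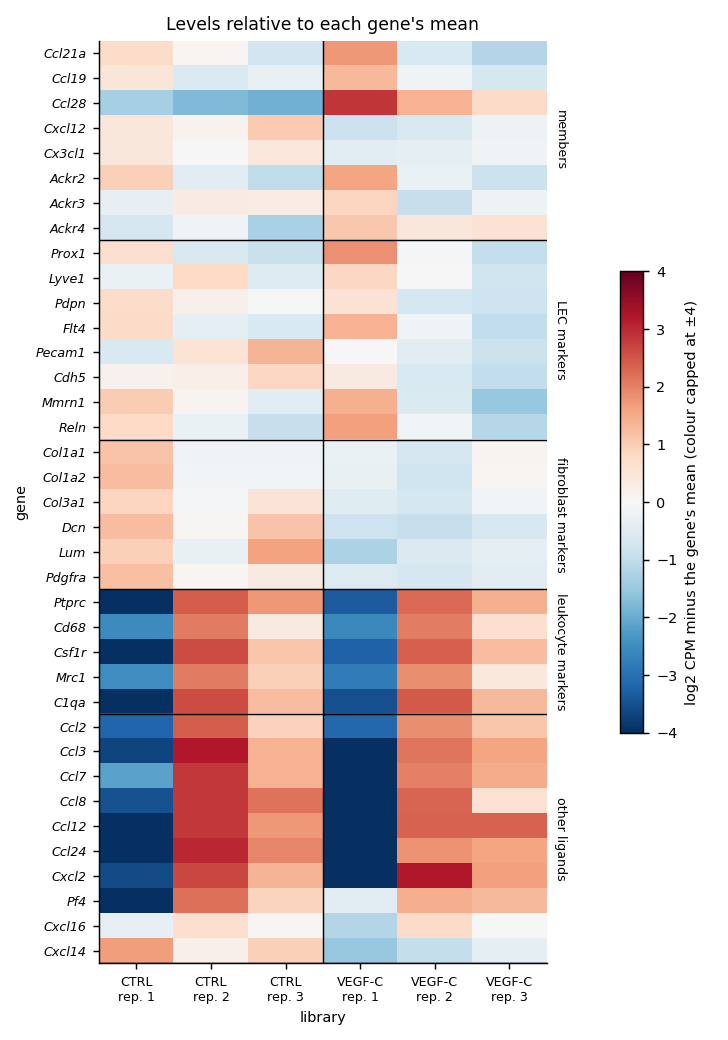
Log2 CPM of each gene minus its mean over 6 libraries (colour, capped at ±4), for the 8 members, LEC, fibroblast and leukocyte markers and other ligands. *Ccl21a*, *Ccl19* and *Ackr2* were highest in experiment 1 (rep. 1) of both groups, as were LEC markers such as *Reln*. The leukocyte markers shown, 5 of 7 tested, were lowest there. The other tested ones, *Cd79a* and *Cd3e*, are not shown and were highest in AAV-VEGF-C 1.

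The rest of the chemokine system was read from lists of genes. Over all tested genes, 10.5% were higher and 0.659% lower, and the list counts stand beside these shares. Of 40 listed ligands 25 could be tested, and 1 of them, *Ccl28*, was higher and 0 were lower, with a median log2 fold change of -0.077. After *Ccl21a*, the most abundant by mean TPM were *Ccl2*, a monocyte attractant (87.0 TPM, log2 fold change -0.29, adjusted p = 0.917), and the platelet factor gene *Pf4* (69.3 TPM, -0.077, adjusted p = 0.981). Of 19 canonical receptors 9 could be tested, and 2 were higher and 0 lower (10.5% and 0.659% over all tested genes), with a median of 0.64. *Ccr9*, a receptor of gut-homing T cells, had 5, 8 and 6 counts in the AAV-CTRL libraries against 3, 9 and 26.4 in AAV-VEGF-C. It was called higher by 3.24 on the log2 scale (SE 0.61, edgeR, adjusted p = 0.0209). *Cxcr2*, a neutrophil receptor, had 0, 3 and 3 counts against 2, 6 and 8 (log2 fold change 3.94, SE 0.90, edgeR, adjusted p = 0.0318). Both lay at counts as low as those of *Ccl28* and, like it, passed the filter only through the AAV-VEGF-C libraries. The part of silent-family counts in these calls was not tested. *Ccr9* lost its call in 4 of the 6 fits that leave out 1 library, namely AAV-CTRL 2 (adjusted p = 0.0772) or 3 (0.0568) and AAV-VEGF-C 2 (0.0609) or 3 (0.0959). *Cxcr2* lost it without any 1 of AAV-CTRL 1, 2 and 3 (adjusted p = 0.0601, 0.0835 and 0.0863) and AAV-VEGF-C 1 and 2 (0.0778 and 0.110), and without AAV-VEGF-C 3 it did not pass the filter.

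Neither *Cx3cr1* nor *Ccr2*, both among the abundant canonical receptors, passed the edgeR test. *Cx3cr1*, the receptor of CX3CL1 and a macrophage and microglia marker, had 26, 1248 and 1502 counts in the AAV-CTRL libraries against 17, 368 and 291 in AAV-VEGF-C, where its log2 fold change was 0.56 (adjusted p = 0.783). It was lower in both experiment 1 libraries than in all others, like *Ptprc*. *Ccr2*, a monocyte receptor, gave a log2 fold change of 2.92 (adjusted p = 0.119) and was called higher with DESeq2 (adjusted p = 0.0208). Its log2 fold change was 1.93 without AAV-VEGF-C replicate 1 (adjusted p = 0.267) and 1.41 without experiment 1 (adjusted p = 0.201). Of the 2 other atypical receptors, *Ccrl2* gave -0.067 on the log2 scale (adjusted p = 0.979), and *Ackr1*, which is known from venules, had 13, 37.9 and 50.04 counts in the AAV-CTRL libraries against 0, 1.56 and 2.84 in AAV-VEGF-C and was not tested. The list of 7 genes for shedding, trimming and presentation of chemokines gave 0 calls (edgeR; 2 of 7 at an unadjusted p under 0.05, beside 28.1% of all tested genes), with a median of -0.44. Among its most abundant genes, *Sdc4* gave a log2 fold change of -0.10 (adjusted p = 0.927) and *Ext2* one of -0.66 (adjusted p = 0.139). The near-copies of *Ccl21* and *Ccl19* gave 0 calls among 5 tested (edgeR; 0 at an unadjusted p under 0.05), with a median of 0.48.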

How the data were processed

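RNA of 6 libraries of sorted dural LECs, 3 per group, was sequenced by the authors after stranded total RNA preparation for low input. The deposited tables hold estimated counts per gene and TPM values, the latter corrected by the authors for transcript length and library total. The submitters' processing notes name mm10, FastQC, Trimmomatic, DRAGEN and Picard without roles. The strand setting and the use of molecular identifiers in counting are not given in the sources used here. Of 55401 identifiers, 98.1% matched GENCODE M21 (GRCm38) with their version and 99.5% without it, and positions and transcript sequences come from that annotation.

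Groups and experiment numbers came from the labels. Estimated counts were rounded, filtered by filterByExpr, scaled by TMM and compared with edgeR 4.0.16 (R 4.3.3, quasi-likelihood test, Benjamini-Hochberg adjusted p under 0.05). SEs were derived from the log2 fold change and its F statistic. The other fits used DESeq2 1.42.0, voom with sample weights, limma 3.58.1 on log2(TPM + 1) and log2(TPM + 0.1), other scalings and filters, counts drawn down to the smallest rounded total of 564430, the experiment number as a replicate block, and each library left out. Summing the *Ccl21* genes and leaving out experiment 1 were chosen after seeing the data. Ratios within libraries were compared with SciPy 1.17.1 (exact permutation test, two-sided). The members and the lists of genes were chosen with earlier results of these data known. The genes named are the 8 members, the genes of the lists that passed the test or were among the 3 most abundant of their list, and the 3 nearest profiles, apart from 1 gene that is not reported here. *Def6* and *Def8*, which are no defensins, were left out of the silent families. Same-numbered libraries deviated together (r across genes, which are not independent replicates, of 0.369, 0.280 and 0.155), while libraries with different numbers gave -0.395 to 0.216, the highest for AAV-CTRL 3 with AAV-VEGF-C 2, and the labels tie the numbers to repeats of the experiment, so the numbers were taken to pair the libraries. Libraries of a group all differed by more than sampling noise, with a lowest chi-square of 8.78 per degree of freedom. The scripts were tested on simulated data. Reads were not shown to be single molecules, and counting intervals cover counting error only.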

Additional observations from a re-analysis of the deposited data

How the results depend on the processing

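Depth limits *Ccl28*, *Ackr4*, *Ccr9* and *Cxcr2*, which had 26.4 counts or fewer per library. *Cx3cl1* and *Ackr4* kept their direction and never passed the threshold in the 20 and 18 other settings, and *Ccl28* and *Cxcl12* kept their direction in all 18 and 20. *Ccl28* kept its call in 14 of 18 and could not be tested at a mean TPM of at least 5 or in drawn-down counts. These tallies include the settings with the *Ccl21* genes summed, with and without the replicate block. Summing leaves the counts of these genes unchanged, so that those settings only repeat the matching fits without it (for *Ccl28* 4.06 and 3.94 either way). Some settings leave fewer genes or libraries than the main test. The causes of the changes below were not tested.

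Some settings moved the median log2 fold change of all genes: to 1.88 with no filter, 0.35 with TMM on the 2000 genes of highest mean TPM, 2.29 with DESeq2, -0.72 with limma on log2 TPM at a pseudocount of 1, -1.04 at 0.1, and -0.10 with the library total alone. Relative to that median *Cxcl12* ranged from -3.47 to -0.65, *Ccl28* from 1.72 to 4.53 and *Ccl21a* from -1.91 to 0.99.

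Genes called higher numbered 1835, and 9382 with no filter, 9 at a mean TPM of at least 5, 5534 with DESeq2, 1112 with limma (pseudocount 1), 16 in drawn-down counts and 0 to 1771 without 1 library. Genes called lower numbered 115, and 53 with the library total, 8 with TMM on the 2000 genes, 1175 with no filter, 0 at a mean TPM of at least 5 and in drawn-down counts, 471 with DESeq2, 434 with limma (pseudocount 1), 267 with voom and 0 to 48 without 1 library. With the replicate block 2241 were higher and 362 lower, also with the *Ccl21* genes summed.

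Among the members, the 1 call higher became 0 at a mean TPM of at least 5 and in drawn-down counts, and ranged from 0 to 1 without 1 library. The 0 calls lower became 1, *Cxcl12*, with no filter (log2 fold change -1.36, adjusted p = 0.0168), DESeq2, limma with pseudocounts of 1 (-2.29, 0.0391) and 0.1 (-2.40, 0.0467) and the replicate block. The pairing changed no other member's call. Ligands higher were 2 with no filter, 0 at a mean TPM of at least 5 and in drawn-down counts, and 0 to 1 without 1 library, and ligands lower were 2 with no filter, DESeq2 and limma (pseudocount 1) and 1 with limma (0.1) and the replicate block. Canonical receptors higher were 7 with no filter, 0 at a mean TPM of at least 5, in drawn-down counts and with limma (pseudocount 1), 4 with DESeq2, 1 with limma (0.1) and without experiment 1, and 0 to 1 without 1 library.

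The direction turned for *Ccl21a* with limma (-1.26 and -1.27 for pseudocounts of 1 and 0.1), voom (-0.49), the replicate block (-0.034), without experiment 1 (-0.66) and in a range of -1.05 to 0.79 without 1 library. It turned for *Ccl19* with no filter (-0.0051), limma (-0.92 and -1.07), voom (-0.11), without experiment 1 (-0.091) and in a range of -0.45 to 0.63 without 1 library. It turned for *Ackr2* with limma (-0.33 and -0.42), voom (-0.23) and in a range of -0.67 to 1.05 without 1 library, and for *Ackr3* with TMM on the 2000 genes (0.21) and in a range of -0.71 to 0.064 without 1 library. Without 1 library, the difference (AAV-VEGF-C minus AAV-CTRL) of *Ccl21a* counts per LEC marker count ranged from -0.00296 to 0.0780 around 0.0467, with the negative value without AAV-VEGF-C replicate 1. That of the *Ccl21a* share of ligand TPM ranged from -17.3 to 15.1 percentage points around 1.19. The receptor to ligand ratio kept its direction in all 8 settings run (0.0124 to 0.0270 without 1 library).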

Other observations

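The monocyte and macrophage chemokines were ordered by experiment number in both groups. *Ccl2* had 28 and 2 counts in AAV-CTRL 1 and AAV-VEGF-C 1, 1859 and 1215 in AAV-CTRL 2 and 3, and 221 and 330 in AAV-VEGF-C 2 and 3. *Ccl12*, another ligand of CCR2, was at 0 counts in experiment 1 of both groups and at 482, 426, 62 and 153 counts in the same 4 other libraries. Of 25 tested ligands, 14 were lower in both experiment 1 libraries than in all 4 others in scaled CPM (*Ccl2*, *Ccl3*, *Ccl4*, *Ccl6*, *Ccl7*, *Ccl8*, *Ccl9*, *Ccl12*, *Ccl24*, *Ccl27a*, *Cxcl2*, *Cxcl10*, *Cxcl16* and *Pf4*), or 56% against 9.58% of all tested genes. The same held for 5 of 7 tested leukocyte markers (*Ptprc*, *Cd68*, *Csf1r*, *Mrc1* and *C1qa*), for 4 of 9 canonical receptors (*Ccr1*, *Cxcr3*, *Cxcr4* and *Cx3cr1*) and for 5 of 7 blood endothelial markers (*Flt1*, *Vwf*, *Emcn*, *Cd34* and *Esam*). The other tested leukocyte markers, the lymphocyte genes *Cd79a* and *Cd3e*, did not have this order and were highest in AAV-VEGF-C 1. The summed leukocyte markers were at 98.7 and 121 scaled CPM in AAV-CTRL 1 and AAV-VEGF-C 1 and at 1540 to 4324 in the other libraries, although the sort selected against CD45. *Csf1r*, the receptor for the macrophage growth factor, went from 100 and 13 counts in experiment 1 to 13780 and 9002 in AAV-CTRL 2 and 3 and 2059 and 2341 in AAV-VEGF-C 2 and 3. This order was seen in the data and was not tested.

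*Cxcl14*, a ligand found in fibroblasts and epithelium, was lower in all AAV-VEGF-C libraries, with 24.0, 8.35 and 14.3 scaled CPM in the AAV-CTRL libraries against 2.25 to 5.28 in AAV-VEGF-C. It did not pass the edgeR test (log2 fold change -1.87, adjusted p = 0.0681) and did with DESeq2 (-1.95, adjusted p = 0.0369), and it was chosen after its values were seen.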
